A study of Mus musculus with 10 samples.

Results

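The 50 genes described here are the protein-coding mouse genes whose symbols start with Psma, Psmb, Psmc, Psmd, Psme, Psmf or Psmg followed by a digit, out of 55573 genes in the count table. Membership was set by symbol, and they comprise 7 alpha and 7 constitutive beta subunits of the 20S core, 5 inducible or tissue-restricted 20S subunits, 6 ATPase and 11 non-ATPase subunits of the 19S regulatory particle, 6 other activators or inhibitors and 7 assembly chaperones. The 50th, Psmc3ip, shares the prefix but encodes a recombination cofactor and not a proteasome subunit. RNA was sequenced from mouse bone marrow B-cells that all carried PAX5-ELN, a fusion of a B-lineage transcription factor gene with the elastin gene known from B-cell leukemia, and a histone H2B tagged with GFP, and that all received doxycycline, with the time given as 35 days. The 5 GFP high libraries are labelled quiescent and the 5 GFP low libraries proliferating, since the tagged histone is diluted when cells divide. The labels give neither the promoters of the transgenes nor the age of the mice, and separate animals are nowhere stated. Each p-value thus reflects the spread among these libraries, of which an unknown part may be technical.

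The proteasome is the protease that degrades ubiquitin-tagged proteins. Its barrel-shaped 20S core is built of outer rings of alpha subunits, which gate the entrance, and inner rings of beta subunits, of which Psmb5, Psmb6 and Psmb7 carry the active sites. The 19S particle caps the barrel, binds ubiquitin chains, removes them and feeds the unfolded protein in. Lymphoid cells and cells exposed to interferon replace the active subunits with Psmb8, Psmb9 and Psmb10, forming the immunoproteasome, which is known for producing peptides presented on class I molecules.

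Total counts lay between 11347097 and 13838769 for GFP high and between 10640894 and 14858520 for GFP low. Libraries 1 to 3 of both groups lay apart from libraries 4 and 5 on the second principal component, which held 23.2% of the variance, with scores of 9.97 to 27.8 against -29.7 to -20.4. Y-linked genes held 7 and 0 counts in GFP high 3 and GFP low 3, and 297 to 2649 counts in each of the other libraries. The libraries numbered 3 are thus unlikely to come from the same animal as the others, although the labels do not say so. The counts below are therefore also given without the libraries in question. Marker levels are given in CPM (counts scaled to a common library size, after TMM scaling). By edgeR's quasi-likelihood test with Benjamini-Hochberg adjustment over all tested genes, 15.5% of them were lower in GFP high and 12% higher at an adjusted p under 0.05, and with the replicate number as a block 21.0% were lower and 20.7% higher. The 8 B-cell progenitor markers summed to 11368 to 13061 CPM in GFP high, against 8678 to 9710 CPM in GFP low, and 3 of them were higher in GFP high, or 7 with the block. All 6 T-cell markers stayed under 1 CPM in every library, summing to 0.436 to 1.24 CPM in GFP high, against 0 to 0.87 CPM in GFP low, with Cd8a at 0.

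Single markers of other cell types moved with the groups. Of 5 plasma-cell markers, which summed to 620.6 to 1093 CPM in GFP high, against 508.3 to 803.9 CPM in GFP low, Sdc1 (0.91) and Xbp1 (0.40) were higher on the log2 scale and Jchain was lower. Jchain, the joining chain of secreted antibodies, averaged 0.628 ± 0.407 CPM in GFP high, against 56.6 ± 23.4 CPM in GFP low (SD, n = 5 each; -6.48 ± 0.44 SE, edgeR adjusted p = 6.18e-06). Of 4 tested plasmacytoid dendritic cell markers (list sum 617 to 691.4 CPM in GFP high, against 536.8 to 604.4 CPM in GFP low), Tcf4 (0.25) and Siglech (4.52) were higher, the second at a mean of 3.70 CPM in GFP high, against 0.153 CPM in GFP low. Of 5 tested monocyte markers (104.2 to 150.1 CPM in GFP high, against 72.7 to 107.7 CPM in GFP low, with overlap), Csf1r (2.14) and Ly6c2 (1.16) were higher, while Lyz2, the most abundant, did not pass. Klrb1c (1.36) was higher among 2 tested natural killer markers (186.7 to 328 CPM in GFP high, against 63.4 to 165.7 CPM in GFP low), with Gzma at 0 and Ncr1 averaging under 1 CPM. Pecam1 (0.81) was higher among 2 tested stroma markers (244.9 to 290.6 CPM in GFP high, against 134.1 to 171.5 CPM in GFP low), with Col1a1 and Lepr averaging under 1 CPM. Cxcl12, the other tested stroma marker, did not pass, at 15.8 CPM in GFP high 2 and at most 3.49 CPM in any other library. Col1a1 and Lepr were also highest in GFP high 2, at 2.78 and 2.61 CPM. Hbb-bs (1.11) was higher among 3 tested erythroid markers (14.8 to 35.6 CPM in GFP high, against 6.77 to 18.1 CPM in GFP low), and the 3 tested neutrophil markers did not pass (3.57 to 9.53 CPM in GFP high, against 2.80 to 7.16 CPM in GFP low). With the block, 4 plasma-cell, 4 monocyte and 1 neutrophil markers were higher, and the counts of the other lists stayed the same. The part of these marker differences in the results below was not tested.

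Proteasome genes were lower in GFP high as a family. They took up 0.739% to 0.867% of all counts in GFP high, against 0.948% to 1.035% in GFP low, and these ranges did not overlap. Of the 50 genes, 49 passed the filter on low counts, and only Psmb11 did not. The counts that follow include Psmc3ip, which is not a subunit and was itself lower without overlap. The log2 fold change of GFP high over GFP low was negative for 48 of the 49, with a median of -0.41, beside a median of 0.03 over all 12772 genes tested. By edgeR, 35 were lower in GFP high at an adjusted p under 0.05, where 15.5% of all tested genes were. None was higher, where 12% of all tested genes were, and none was higher at an unadjusted p under 0.05 or by DESeq2 either. In 31 of the 49, all 5 GFP high libraries lay below all 5 GFP low libraries, which held for 12.6% of all tested genes. The reverse held for 0 of them and for 7.92% of all tested genes. Libraries 1 to 3 alone gave 32 lower calls (12.9% of all tested genes), and libraries 4 and 5 alone gave 30 (11.2%). Neither fit gave a higher one, where 10.7% and 10.4% of all tested genes were higher. Without both libraries numbered 3 there were 28 lower calls (9.94% of all tested genes) and no higher one (7.93%). CPM are relative levels, and in these bulk libraries a lower value cannot tell fewer cells of a type from less RNA per cell.

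**Figure D1:**
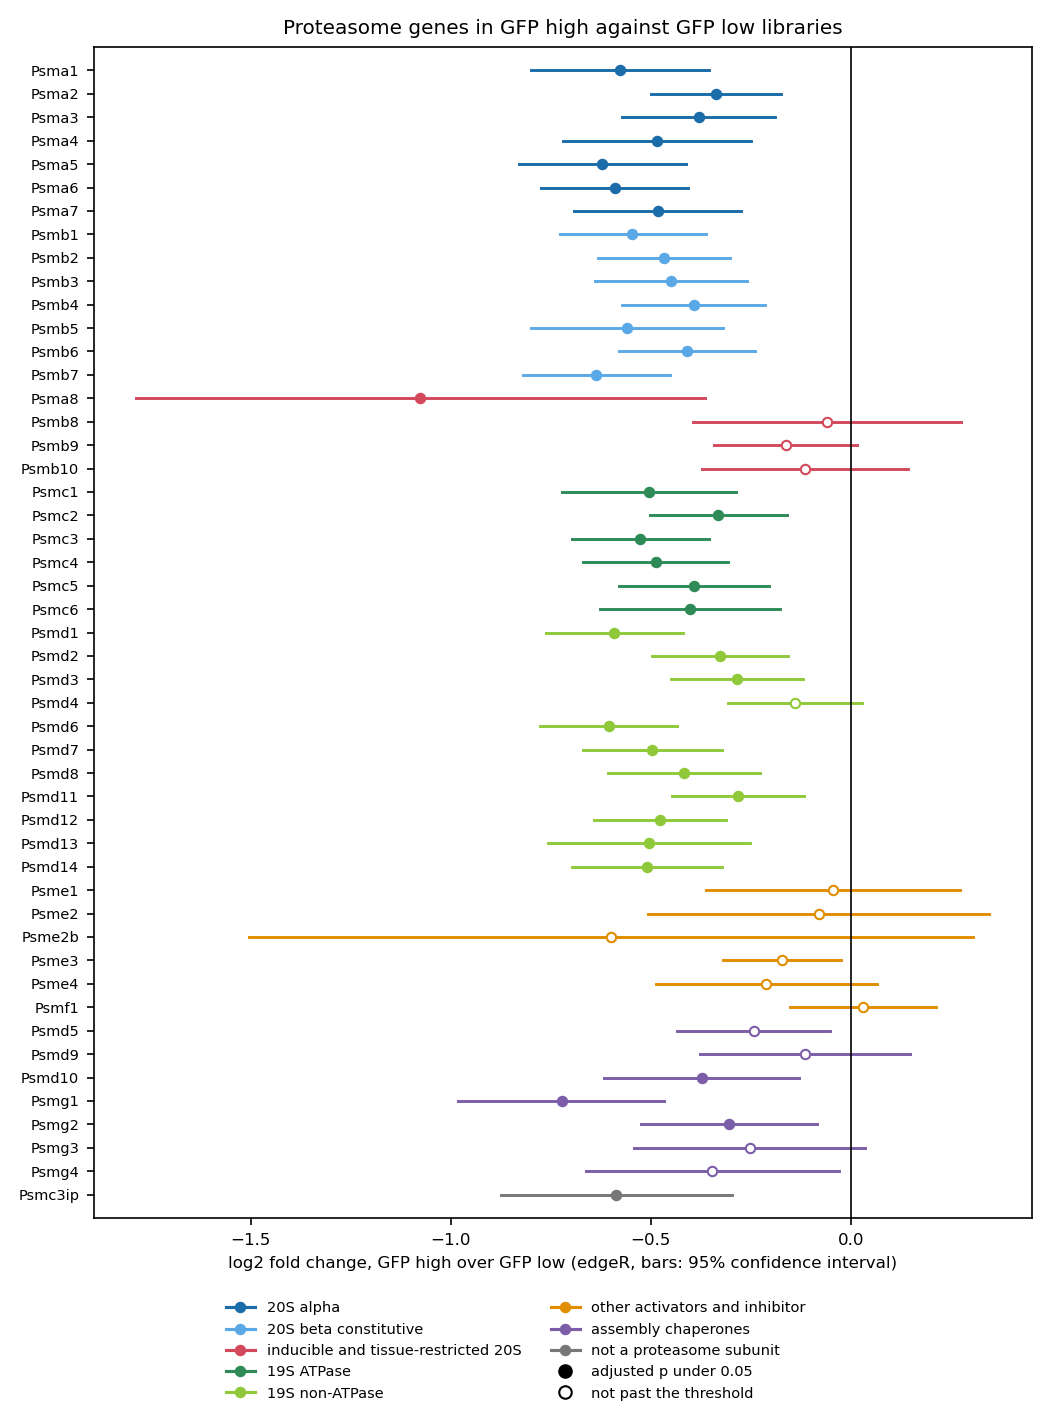
Log2 fold change of GFP high over GFP low for the 49 tested genes, Psmc3ip included, by edgeR, with bars for the 95% confidence interval, colours for the class and filled points for an adjusted p under 0.05. The 14 constitutive core genes and the 6 ATPase genes lie left of 0 with filled points, while Psmb8, Psmb9, Psmb10 and all 6 activator and inhibitor genes have open points.

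The 7 alpha subunit genes, which build the gating rings, were all lower in GFP high, with log2 fold changes from -0.62 to -0.34 and a median of -0.48. Psma6, the alpha gene with the lowest p, measured 278.5, 283.9, 264.2, 293.4 and 343.6 CPM in GFP high 1 to 5, against 396.7, 468.5, 456.2, 453.3 and 428.7 CPM in GFP low 1 to 5. Every GFP high library lay below every GFP low library (log2 fold change -0.59 ± 0.09, SE, edgeR adjusted p = 0.000332). Psma5, the alpha gene with the largest fall, averaged 111.8 ± 15.6 CPM in GFP high, against 171.9 ± 7.38 CPM in GFP low (SD, n = 5 each; -0.62 ± 0.10 SE, edgeR adjusted p = 0.000561). Its value is less certain than that of Psma6, because 54.5% of the 50-base words of its main transcript also occur in other genes, most of them in Gm8394. Psma2 showed the smallest fall of the class (-0.34), and Psma3 (-0.38) did not pass in libraries 1 to 3 alone (-0.34, edgeR adjusted p = 0.0643). Summed over the class, the level was 1641 ± 143 CPM in GFP high, against 2300 ± 119.9 CPM in GFP low, and no gene of the class overlapped between the groups.

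The 7 constitutive beta genes were also all lower in GFP high, from -0.64 to -0.39 with a median of -0.47. Their summed level was 1116 ± 75.9 CPM in GFP high, against 1557 ± 105.5 CPM in GFP low (SD, n = 5 each), again with no overlap in any of the 7. Among them, Psmb1 averaged 259.6 CPM in GFP high, against 378.9 CPM in GFP low, and Psmb4, with the smallest difference, 122.9 CPM in GFP high, against 161.4 CPM in GFP low. Neither carries an active site. Psmb4 did not pass in libraries 4 and 5 alone (-0.31, edgeR adjusted p = 0.0576). The value of Psmb3 is less certain, because 55.8% of the 50-base words of its main transcript also occur in other genes, most of them in AC114990.1.

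**Figure D2:**
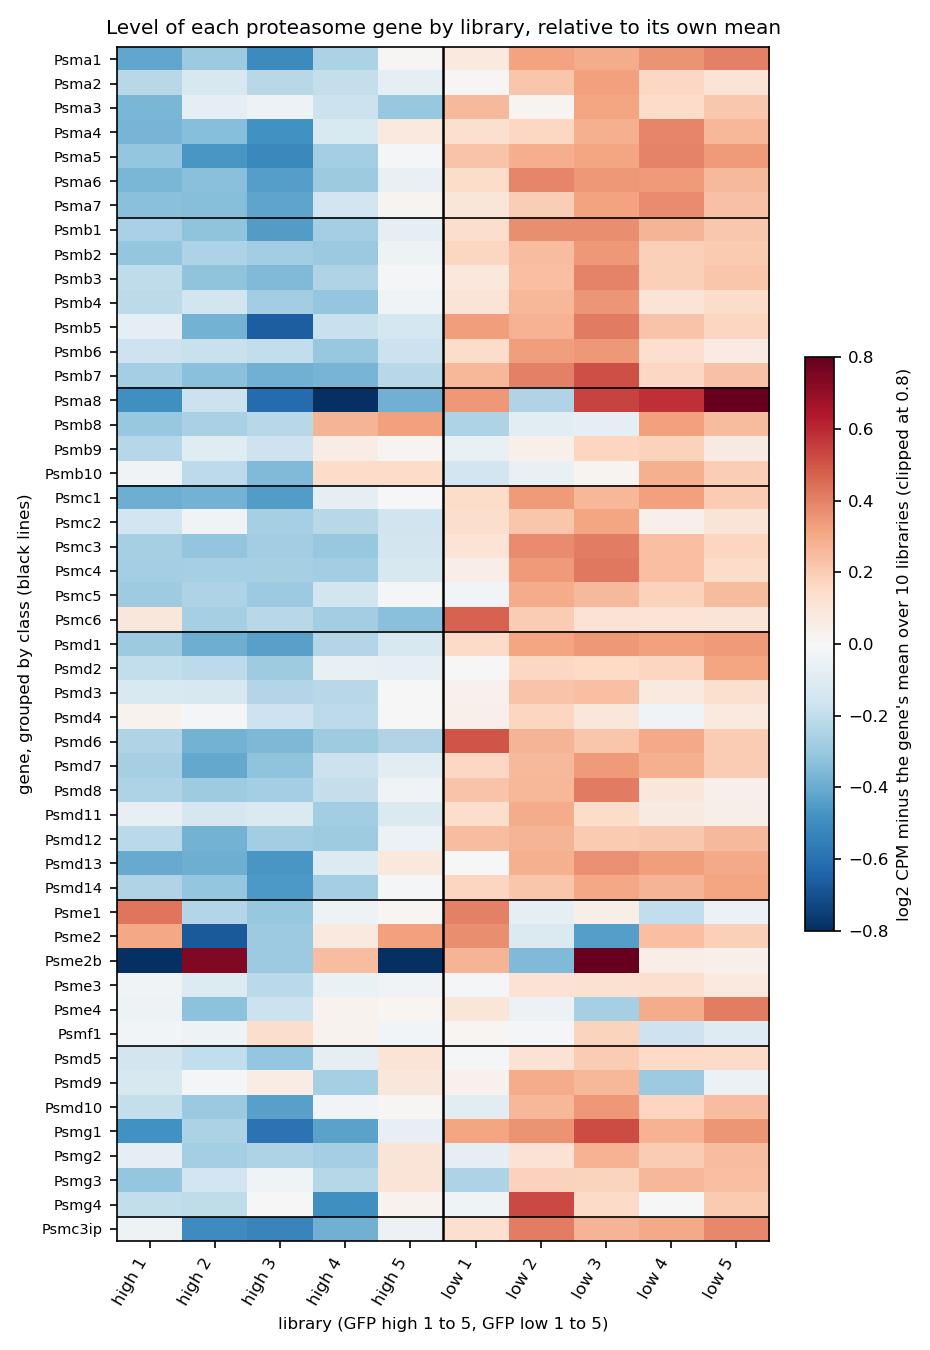
Log2 CPM of each of the 49 tested genes, Psmc3ip included, in each library, as the difference from the gene's own mean over the 10 libraries, with GFP high libraries 1 to 5 on the left, GFP low libraries 1 to 5 on the right and black lines between classes. The 20S and 19S rows are mostly blue in GFP high and red in GFP low, whereas the row of Psmb8 is blue in libraries 1 to 3 and red in libraries 4 and 5 of both groups.

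The active-site genes separated by type, with the constitutive genes lower in GFP high and none of the inducible ones past the threshold. Psmb5 (GRCm38 chromosome 14, 54614119 to 54618022), the chymotrypsin-like subunit, measured 66.8, 54.3, 44.6, 62.2 and 64.0 CPM in GFP high 1 to 5, against 88.9, 85.6, 94.2, 82.4 and 79.2 CPM in GFP low 1 to 5. No libraries of the groups overlapped, and the lowest value was that of GFP high 3 (log2 fold change -0.56 ± 0.11 SE, edgeR adjusted p = 0.00264). Part of the Psmb5 count is uncertain, since 57.1% of the 50-base words of its main transcript also occur in other genes, most of them in Gm3375. Psmb6 (chromosome 11, 70525367 to 70527858), the caspase-like subunit, measured 218.9, 217.4, 214.7, 198.9 and 218.0 CPM in GFP high, against 271.5, 309.4, 312.5, 268.1 and 256.8 CPM in GFP low. GFP high libraries were close to each other and all below GFP low (-0.41 ± 0.08 SE, edgeR adjusted p = 0.00218). Psmb7 (chromosome 2, 38588036 to 38644087), the trypsin-like subunit, measured 75.2, 72.0, 69.6, 69.9 and 77.8 CPM in GFP high, against 108.9, 120, 129.5, 101.5 and 106.6 CPM in GFP low. It showed the largest fall of the 14 constitutive core genes, without overlap (-0.64 ± 0.09 SE, edgeR adjusted p = 0.000207). Its count is uncertain in part too, since Nek6 on the opposite strand overlaps 11.8% of its exon bases and the strand use of the counting is not given.

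The inducible genes Psmb8 and Psmb9 lie in the class II region of the major histocompatibility complex beside the peptide transporter genes (GRCm38 chromosome 17, 34197721 to 34201454 and 34181987 to 34187764). Psmb8, the inducible counterpart of Psmb5, measured 211.9, 218.1, 224.5, 316.1 and 328.4 CPM in GFP high 1 to 5, against 220.4, 246.1, 248.2, 328.1 and 311.4 CPM in GFP low 1 to 5. Libraries 4 and 5 were high and libraries 1 to 3 low in both groups, and the groups overlapped throughout (log2 fold change -0.06 ± 0.15 SE, 95% confidence interval -0.39 to 0.27, edgeR adjusted p = 0.805). Psmb9, the counterpart of Psmb6, measured 185.8, 202.9, 193.7, 226.4 and 221.1 CPM in GFP high, against 208.9, 223.5, 245.1, 246.9 and 228.9 CPM in GFP low. It was lower in GFP high in 5 of 5 pairs of the same number but the groups overlapped (-0.16 ± 0.08 SE, edgeR adjusted p = 0.162). With the replicate number as a block, Psmb9 passed the threshold (-0.16, edgeR adjusted p = 0.0455). Psmb10 (chromosome 8, 105935735 to 105938444), the counterpart of Psmb7, measured 114.6, 101, 91.8, 129.4 and 129.8 CPM in GFP high, against 105.2, 112.5, 118.7, 142.7 and 134.3 CPM in GFP low, with wide overlap (-0.12 ± 0.12 SE, interval -0.37 to 0.14, edgeR adjusted p = 0.509). Summed, the 3 inducible genes were at 579.1 ± 88.2 CPM in GFP high, against 624.2 ± 72.9 CPM in GFP low, and the 3 constitutive ones at 344.9 ± 15.2 CPM in GFP high, against 483 ± 40.7 CPM in GFP low (SD, n = 5 each).

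**Figure D3:**
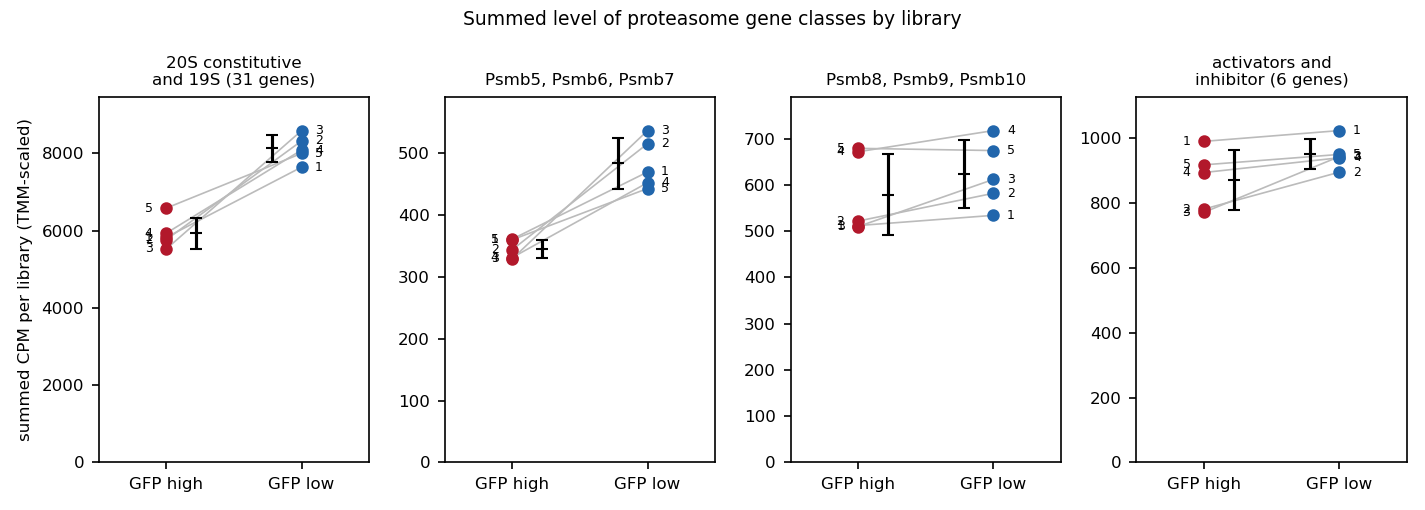
Summed CPM per library of 4 sets of proteasome genes, with GFP high points left of GFP low points, grey lines between libraries of the same number, and bars for the mean and SD of 5 libraries. The sums of the 31 constitutive core and 19S genes and of Psmb5, Psmb6 and Psmb7 do not overlap between the groups, while those of Psmb8, Psmb9 and Psmb10 and of the 6 activator and inhibitor genes do.

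The difference between the inducible and the constitutive gene of each active site was tested directly, as the log2 ratio of their counts within a library, which needs no scaling between libraries. The Psmb8 over Psmb5 ratio was 1.67, 2.01, 2.33, 2.34 and 2.36 in GFP high 1 to 5, against 1.31, 1.52, 1.4, 1.99 and 1.98 in GFP low 1 to 5, on the log2 scale. It was higher in GFP high in 5 of 5 pairs, by a mean of 0.50, but the groups overlapped because GFP low 4 and 5 exceeded GFP high 1 (two-sided exact permutation test, p = 0.0318, n = 5 each). The Psmb9 over Psmb6 log2 ratio was -0.24, -0.10, -0.15, 0.19 and 0.02 in GFP high, against -0.38, -0.47, -0.35, -0.12 and -0.17 in GFP low. The mean difference was 0.24, again with GFP high above in 5 of 5 pairs and with overlap (exact permutation test, p = 0.0476). The Psmb10 over Psmb7 log2 ratio was 0.61, 0.49, 0.40, 0.89 and 0.74 in GFP high, against -0.05, -0.09, -0.13, 0.49 and 0.33 in GFP low. Only GFP low 4 entered the range of GFP high, and the mean difference was 0.51 with 5 of 5 pairs higher (exact permutation test, p = 0.0238). Adjusted over the 3 ratios, each p was 0.0476. Within libraries 1 to 3 the mean differences were 0.59, 0.24 and 0.59 for the 3 ratios in this order, and within libraries 4 and 5 they were 0.37, 0.25 and 0.40.

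Each call depended on which libraries entered. The exact adjusted p was 0.0318 to 0.0476 without GFP high 1, GFP low 4 or GFP low 5, but 0.0635 to 0.0952 without GFP high 2, 3, 4 or 5 or without GFP low 1, 2 or 3, with mean differences of 0.18 to 0.57 in those omissions. With the signs exchanged only within the 5 numbered pairs, the exact p was 0.0625 for each ratio, which is the smallest value that test can give.

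**Figure D4:**
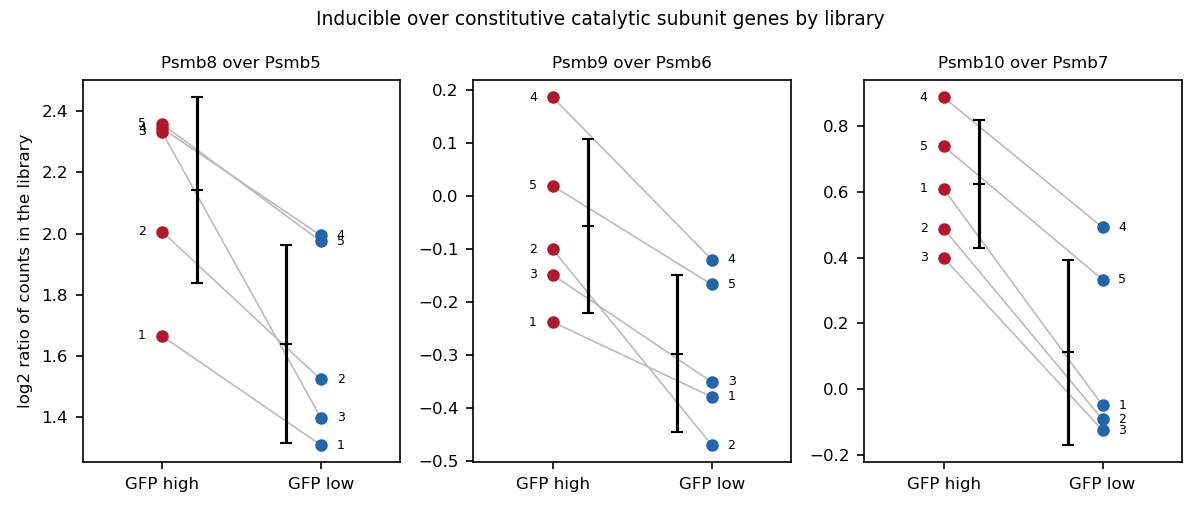
Log2 ratio of the counts of the inducible gene to those of the constitutive gene at the same active site, per library, with GFP high left of GFP low, grey lines between libraries of the same number, and bars for the mean and SD of 5 libraries. All 15 grey lines run downwards to GFP low, and the points of the groups overlap in each of the 3 panels.

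Promoter sequence was compared for 42 of the 50 genes, which had 45 entries in the RefSeq promoter table (GRCm38.p6), each of 250 bases before and 50 after the start. The other genes, Psmb7 among them, had no entry and were not searched. Motifs were searched on both strands. The antioxidant response element TGACNNNGC, the site of the Nfe2l1 family that drives constitutive proteasome genes, was in 13.3% of these promoters and in 12.4% of all 32851 promoters. CCAAT was in 33.3% of them and in 37.4% of all. The interferon-stimulated response element GAAANNGAAA was in 11.1% of them and in 3.44% of all, and the STAT site TTCNNNGAA in 6.67% of them and in 8.3% of all. The stretches below show every match of the antioxidant element and of the STAT site among the members, and the interferon element of Psmb3 and of Psme1, 5′ to 3′ on the strand of the gene with the match in capitals. The first 6 hold the antioxidant element, the next 3 the STAT site, which reads alike on both strands, and the last 2 the interferon element. The matches of Psmc6, Psmd12, Psme4, Psmb3 and Psme1 are on the opposite strand.
Psmb5, chr14:54618024-54618052, minus strand: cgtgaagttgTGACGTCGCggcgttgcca
Psmb6, chr11:70525338-70525366, plus strand: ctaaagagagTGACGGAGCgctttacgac
Psmc6, chr14:45329587-45329615, plus strand: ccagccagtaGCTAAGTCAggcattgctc
Psmd12, chr11:107479278-107479299, plus strand: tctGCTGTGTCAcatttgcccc
Psmd9, chr5:123228149-123228177, plus strand: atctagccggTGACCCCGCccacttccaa
Psme4, chr11:30771758-30771786, plus strand: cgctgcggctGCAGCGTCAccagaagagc
Psmb8, chr17:34198088-34198116, plus strand: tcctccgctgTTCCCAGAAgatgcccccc
Psmd2, chr16:20651646-20651674, plus strand: gcgcgtggccTTCTGGGAAaaggggcggt
Psmg1, chr16:95991185-95991210, minus strand: actcatgTTCTCTGAAtccgcttgca
Psmb3, chr11:97703261-97703290, plus strand: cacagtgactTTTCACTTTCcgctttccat
Psme1, chr14:55578493-55578522, plus strand: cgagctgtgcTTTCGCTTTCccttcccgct
The stretches of Psme4, Psmb8, Psmd2 and Psme1 overlap an annotated GENCODE exon of their genes. With the antioxidant element, Psmb5, Psmb6, Psmc6 and Psmd12 were lower in GFP high, and Psmd9 and Psme4 did not pass. With the STAT site, Psmd2 and Psmg1 were lower and Psmb8 did not pass. The 5 genes with the interferon element were Psmb3, Psmd4, Psmd9, Psme1 and Psmg4, of which only Psmb3 was lower. Psmd4 (-0.14), Psmd9 (-0.12), Psme1 (-0.05) and Psmg4 (-0.35) did not pass, and Psmg4 was lower with the replicate block. Of all 49 tested members, 35 were lower, as were 15.5% of all tested genes. Whether genes with a motif differ from the others was not tested. A match describes letters in the window and does not show that a factor binds there.

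The 6 ATPase genes, whose ring unfolds the substrate, were all lower in GFP high, with a median log2 fold change of -0.45. Psmc3 had the lowest p, with 215.3, 207.6, 213.1, 209.3 and 233 CPM in GFP high 1 to 5, against 279, 335.2, 343.3, 304.8 and 291.2 CPM in GFP low 1 to 5. The GFP high values spanned a narrow range, all below GFP low (-0.53 ± 0.08 SE, edgeR adjusted p = 0.000446). Psmc2 showed the smallest fall (-0.33), and its call was lost without both libraries numbered 3 (-0.25, edgeR adjusted p = 0.0658). Psmc5 was the one ATPase gene whose groups overlapped, since GFP high 5 reached 165 CPM and GFP low 1 was at 164.1 CPM. The class summed to 1042 ± 44.5 CPM in GFP high, against 1422 ± 74.0 CPM in GFP low (SD, n = 5 each).

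Of the 11 non-ATPase genes, 10 were lower in GFP high, and their summed level was 2130 ± 146.2 CPM in GFP high, against 2851 ± 93.6 CPM in GFP low. Psmd6, a lid subunit, had the lowest p and the largest fall, with 131.7, 119.4, 121.1, 127.9 and 131.4 CPM in GFP high 1 to 5, against 220.1, 187.7, 181.3, 192.2 and 179.3 CPM in GFP low 1 to 5. The highest GFP high value stood well below the lowest GFP low value (-0.61 ± 0.08 SE, edgeR adjusted p = 0.000173). Psmd14, the subunit that cuts ubiquitin chains off the substrate, averaged 202.2 ± 23.4 CPM in GFP high, against 287.8 ± 12.2 CPM in GFP low (-0.51 ± 0.09 SE, edgeR adjusted p = 0.00106). Psmd1, the large scaffold of the base, averaged 227.6 ± 19.4 CPM in GFP high, against 342.9 ± 18.6 CPM in GFP low (-0.59 ± 0.08 SE, edgeR adjusted p = 0.000207).

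The smaller falls depended on single settings. Psmd3 (-0.29) and Psmd11 (-0.28) lost their calls without GFP low 2 (edgeR adjusted p = 0.0562 and 0.0590), without the filter, in libraries 4 and 5 alone and without both libraries numbered 3. Psmd2 (-0.33) lost its call without both libraries numbered 3 (edgeR adjusted p = 0.0540), and Psmd8 (-0.42) in libraries 4 and 5 alone (edgeR adjusted p = 0.121).

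Psmd4, which binds ubiquitin chains, was the non-ATPase gene that did not pass. It measured 174, 169.3, 152, 147.6 and 170.7 CPM in GFP high 1 to 5, against 175.6, 192.1, 181.9, 167 and 179.8 CPM in GFP low 1 to 5. GFP high lay below GFP low in 5 of 5 pairs, but the groups overlapped (-0.14 ± 0.08 SE, interval -0.31 to 0.03, edgeR adjusted p = 0.198). Whether its change differs from that of the other subunits was not tested. Together, the 31 constitutive core and 19S genes gave 30 lower calls, a median of -0.48 and no overlap in 28 genes. Their summed level was 5827, 5768, 5527, 5935 and 6584 CPM in GFP high 1 to 5, against 7645, 8324, 8591, 8088 and 8001 CPM in GFP low 1 to 5.

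None of the 6 other activators and inhibitors passed the threshold. Psme1 and Psme2 encode the interferon-inducible PA28 cap, and their genes lie side by side on chromosome 14 (GRCm38, 55578123 to 55581529 and 55587441 to 55591113). Psme1 measured 303.2, 191.8, 182.7, 218.7 and 228.1 CPM in GFP high 1 to 5, against 297.6, 214.1, 232.7, 196.9 and 218.6 CPM in GFP low 1 to 5. Library 1 was the highest in both groups, and the groups overlapped (-0.05 ± 0.15 SE, interval -0.36 to 0.27, edgeR adjusted p = 0.850). Psme2 measured 196.1, 99.5, 129.5, 166.8 and 198.8 CPM in GFP high, against 204.9, 146.4, 116.5, 186.9 and 181 CPM in GFP low (-0.08 ± 0.20 SE, interval -0.51 to 0.35, edgeR adjusted p = 0.795). The signs of both turned with single libraries left out.

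Psme3, the nuclear relative of PA28, measured 340.5, 321.9, 298.5, 334.8 and 341.2 CPM in GFP high 1 to 5, against 343.6, 376.8, 378.2, 380.7 and 366 CPM in GFP low 1 to 5. It was the one gene of this class without overlap, although GFP high 5 and GFP low 1 nearly met (-0.17 ± 0.07 SE, edgeR adjusted p = 0.0774). It passed with the replicate number as a block (-0.17, edgeR adjusted p = 0.0343). Psme4, the large nuclear activator PA200, averaged 63.8 ± 6.43 CPM in GFP high, against 73.8 ± 13.6 CPM in GFP low (-0.21 ± 0.13 SE, edgeR adjusted p = 0.239), and passed in libraries 4 and 5 alone (-0.35, edgeR adjusted p = 0.0405). Psmf1, the inhibitor PI31, was the only tested gene of the family with a positive value, at 71.7 ± 3.79 CPM in GFP high, against 70.3 ± 6.57 CPM in GFP low (0.03 ± 0.08 SE, interval -0.15 to 0.21, edgeR adjusted p = 0.821). Whether the activator genes differ in their change from the core genes was not tested.

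Psme2b, a near copy of Psme2 on chromosome 11 (48945354 to 48946190), varied more between libraries of a group than any other member, with an SD of 0.85 in GFP high, against 0.73 in GFP low on the log2 CPM scale. Of its main transcript, 69.3% of the 50-base words also occur in other genes, most of them in Psme2. It held 197, 516, 314, 409 and 121 counts in GFP high 1 to 5, against 452, 298, 815, 355 and 408 counts in GFP low 1 to 5. As a share of the counts of both genes, this was 6.81%, 31.1%, 14.5%, 16.0% and 5.0% in GFP high, against 13.6%, 12.6%, 40.4%, 13% and 13.2% in GFP low. The libraries with the highest shares, GFP high 2 and GFP low 3, were those with the lowest Psme2 levels of their groups. The difference of Psme2b did not pass (-0.60 ± 0.42 SE, edgeR adjusted p = 0.314), nor did that of the 2 genes summed (-0.16 ± 0.13 SE, edgeR adjusted p = 0.381). The treatment of reads that match both genes is not stated in the labels.

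**Figure D5:**
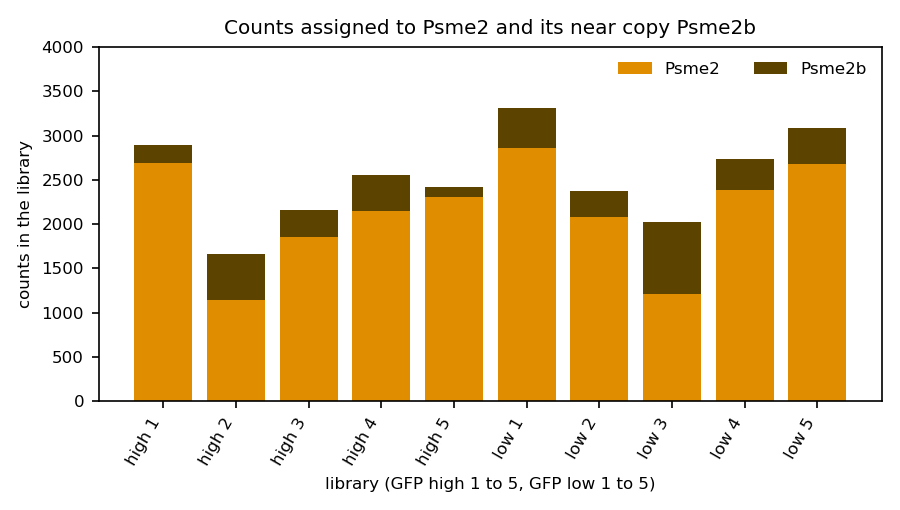
Counts assigned to Psme2 (lower part of each bar) and to its near copy Psme2b (upper part) in each library, with GFP high libraries on the left and GFP low libraries on the right. Psme2b takes 5.0% to 31.1% of the bar in GFP high, against 12.6% to 40.4% in GFP low.

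Of the 7 assembly chaperone genes, 3 were lower in GFP high and 4 did not pass. Psmg1, which pairs with Psmg2 to assemble alpha rings, measured 20.1, 23.6, 18.7, 20.9 and 26.9 CPM in GFP high 1 to 5, against 35.1, 36.2, 40.4, 34.1 and 36.0 CPM in GFP low 1 to 5. The groups were far apart, and Psmg1 had the largest fall of all genes of the family but Psma8 (-0.72 ± 0.12 SE, edgeR adjusted p = 0.000837). Psmg2 (-0.31, edgeR adjusted p = 0.0406) and Psmd10, a chaperone of the 19S base (-0.37, edgeR adjusted p = 0.0271), passed by less. Without GFP high 5 or GFP low 1, both kept their calls, but Psmg2 lost its call in the other 8 omissions of 1 library (adjusted p = 0.0727 to 0.109), and Psmd10 in 6 of the 10 (adjusted p = 0.0552 to 0.075). With the replicate block, Psmd5 (-0.25, edgeR adjusted p = 0.0173) and Psmg4 (-0.34, edgeR adjusted p = 0.0467) passed as well, against 0.0579 and 0.0972 without it. Psmd9 (-0.12) and Psmg3 (-0.25) passed in neither fit.

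The remaining members were low. Psmb11, the thymus-specific beta subunit, had 0 counts in all 10 libraries, where 3 counts, the floor used here, correspond to 0.202 to 0.282 CPM and cover counting error only. Psma8, an alpha subunit known from testis, measured 1.60, 2.0, 1.47, 1.24 and 1.73 CPM in GFP high 1 to 5, against 2.86, 1.91, 3.29, 3.37 and 5.54 CPM in GFP low 1 to 5. It was lower in GFP high (-1.08 ± 0.33 SE, edgeR adjusted p = 0.0283), with overlap between GFP high 2 and GFP low 2. That call was lost in libraries 1 to 3 alone (-0.65, adjusted p = 0.311), and without GFP high 1, 3 or 4 or GFP low 3, 4 or 5, where the adjusted p was 0.0503 to 0.0826. Psmc3ip, the recombination cofactor, averaged 18.4 ± 3.12 CPM in GFP high, against 27.6 ± 2.05 CPM in GFP low, without overlap (-0.59 ± 0.13 SE, edgeR adjusted p = 0.00614). Another 4 genes with the same prefixes are annotated as pseudogenes and held at most 4 counts in any library.

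Levels of different genes were compared per kilobase of the main transcript, as group means of CPM per kb. Subunits present in equal numbers in the particle differed in RNA level by this measure, which depends on the main transcript chosen. In the alpha ring, the order ran from Psma3, at 81.1 CPM per kb in GFP high, against 105.6 in GFP low, up to Psma7 at 289.8 in GFP high and Psma6 at 422.9 in GFP low. The main transcript of Psma3 has 2846 bases, against 914 for Psma7 and 1042 for Psma6. Before division by length, Psma5 was the lowest alpha gene, at 111.8 CPM in GFP high, against 171.9 CPM in GFP low. Among active-site genes, Psmb6 was at 267.6 ± 10.5 CPM per kb in GFP high, against 355.5 ± 32.0 in GFP low. Psmb5 was at 65.0 ± 10 CPM per kb in GFP high, against 95.7 ± 6.45 in GFP low, and Psmb7 at 62.8 ± 3.03 in GFP high, against 97.7 ± 9.77 in GFP low, so that these neighbours in the order differed by less than their spread. Psmb8 exceeded Psmb5 per kilobase by 2.48-fold in GFP high, against 1.76-fold in GFP low on average, and Psmb10 was at 1.37 times Psmb7 in GFP high, against 0.971 times in GFP low. The folds of Psmb8 over Psmb5 are uncertain, since 57.1% of the 50-base words of Psmb5, but none of those of Psmb8, also occur in other genes. Gm20496 on the opposite strand overlaps 14.7% of the exon bases of Psmb8, and the strand use of the counting is not given. Psmb9 stayed below Psmb6 in every library, at 0.571 times in GFP high, against 0.483 times in GFP low.

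Within groups, the median SD of log2 CPM over the 49 genes was 0.143 in GFP high, against 0.115 in GFP low, beside 0.258 in GFP high, against 0.246 in GFP low over all tested genes. The sets were not matched for level, since only 4903 of all 12772 tested genes averaged at least 50 CPM. After Psme2b, the most variable of the abundant members in GFP high were Psme2, with an SD of 0.43 in GFP high, against 0.33 in GFP low, Psmb8, with 0.31 in GFP high, against 0.24 in GFP low, and Psme1, with 0.29 in GFP high, against 0.23 in GFP low. In GFP low, Psme4 (0.271) was above Psmb8 and Psme1, and Psmd9 (0.24) was above Psme1. Psmb9, with 0.122 in GFP high, against 0.1 in GFP low, lay below both family medians, and Psmb10 had SDs of 0.22 in GFP high and 0.181 in GFP low libraries.

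Of a list of 30 proteasome partners, 29 were found and tested, of which 7 were lower, 1 was higher and 21 did not pass, where 15.5% of all tested genes were lower and 12% higher, with a median log2 fold change of -0.07. With the replicate block, 13 were lower and 5 higher, where 21.0% and 20.7% of all tested genes were. The lower genes with the lowest p were Uchl5, a deubiquitinase bound to the 19S particle (113.6 ± 8.11 CPM in GFP high, against 180.9 ± 8.43 CPM in GFP low, -0.67 ± 0.08 SE, edgeR adjusted p = 6.52e-05), and Txnl1, a thioredoxin-like protein bound to it (172.4 ± 11.4 CPM in GFP high, against 272.4 ± 42.4 CPM in GFP low, -0.66 ± 0.11 SE, edgeR adjusted p = 0.000718). The other 5, named after their values were seen, were the core maturation factor Pomp (-0.55), the small 19S subunit Sem1 (-0.53), the scaffold Ecpas (-0.42), and the ubiquitin shuttles Ubqln1 (-0.30) and Rad23b (-0.29). The single higher gene, also named after its value was seen, was Nfe2l1, the transcription factor that raises proteasome genes when proteasome activity is short. It measured 77.3, 99.3, 95.1, 91 and 101.5 CPM in GFP high 1 to 5, against 58.2, 79.3, 69.3, 69.4 and 73.3 CPM in GFP low 1 to 5. It was higher in GFP high in every pair, with overlap at GFP high 1 (0.41 ± 0.10 SE, edgeR adjusted p = 0.0103).

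Immunoproteasome subunits are known for their part in class I antigen presentation, and the genes of that pathway were examined as a list. Of 12 class I antigen processing genes, 7 were higher in GFP high, 2 lower and 3 not past the threshold, where 12% of all tested genes were higher and 15.5% lower, with a median log2 fold change of 0.37. With the block, 8 were higher and 3 lower, where 20.7% and 21.0% of all tested genes were. H2-D1, a class I heavy chain, averaged 3528 ± 109.6 CPM in GFP high, against 2695 ± 84.2 CPM in GFP low (0.39 ± 0.05 SE, edgeR adjusted p = 8.47e-05). B2m, its light chain, averaged 6575 ± 247.9 CPM in GFP high, against 4896 ± 410.1 CPM in GFP low (0.43 ± 0.06 SE, edgeR adjusted p = 0.000233). The lower ones were the chaperones Canx and Pdia3. Tap1, the peptide transporter gene next to Psmb9, did not pass (0.20 ± 0.09 SE, edgeR adjusted p = 0.134), but was higher with the block (0.19, edgeR adjusted p = 0.0121), and the chaperone Calr (-0.22, edgeR adjusted p = 0.0709) was lower with it (-0.21, edgeR adjusted p = 0.0177). Of 12 interferon response genes, 3 were higher, namely Ifit3 (1.25 ± 0.26 SE, edgeR adjusted p = 0.00325), the signal transducer Stat2 (0.62 ± 0.14 SE, edgeR adjusted p = 0.00472) and Gbp2 (0.82), and the median was 0.41, where 12% of all tested genes were higher and 15.5% lower. Oas1a (-0.32, edgeR adjusted p = 0.0584) did not pass. With the block, 8 of the 12 were higher and 1, Oas1a, was lower (edgeR adjusted p = 0.0278), where 20.7% and 21.0% of all tested genes were.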

How the data were processed

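The 10 libraries were assigned to GFP high (5) and GFP low (5) by their titles. The deposited table holds raw whole-number read counts per Ensembl gene, not normalized by the authors. Per the submitters' processing notes, STAR, featureCounts and DESeq2 were used with the build mm10; their settings, strand use and treatment of multiply matching reads are not given in the sources used here, so counts of overlapping genes and near copies are uncertain. Per the labels' protocols, polyA RNA was made into libraries with a low-input template-switching kit. Symbols came from GENCODE M21 (99.833% of identifiers matched, 93 did not).

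Counts were filtered by filterByExpr, scaled by TMM and tested with edgeR 4.0.16 (R 4.3.3) by the quasi-likelihood test without covariates over 12772 genes, with Benjamini-Hochberg adjustment and a threshold of 0.05. Fold changes have GFP high on top. Ratios were tested by exact permutation (scipy 1.17.1). Both tests were also run on simulated libraries without pairing or a split by library number, so those runs do not show how the tests behave here. Alternatives were DESeq2 1.42.0, other scalings, no filter, the replicate block and omitted libraries. Further alternatives, chosen after seeing the data, were libraries 1 to 3 alone, libraries 4 and 5 alone, and summed Psme2 and Psme2b counts.

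Replicate numbers are shared by the groups. Deviations from the group mean of same-numbered libraries correlated at 0.433, 0.321, 0.358, 0.450 and 0.438 across genes. Each was above the highest value with another number, by little for numbers 4 (0.450 against 0.392) and 5 (0.438 against 0.418). No label states a pairing, so the main fit and the main ratio test left it out. The replicate block and the exchange of signs within numbered pairs were the alternatives that used it. No 2 libraries of a group agreed within sampling noise (lowest chi-square per gene 7.16).

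The members and lists were chosen with earlier results of these data known. Named with full values were the active-site, activator and inhibitor genes, the member with the lowest p in each class, the 5 largest rises and falls past the threshold, members against their class, and the 2 genes of lowest p from each other list. Other names were chosen after their values were seen.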

Additional observations from a re-analysis of the deposited data

Results flagged for a closer look

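In 8 of 98 groups of 5 libraries examined, 1 per tested gene and group, the highest or lowest library stood apart from the other 4 by Dixon's criterion at 95%, which chance alone meets in about 1 of 20 groups. In GFP high, library 5 was high for Psmc4 (188.5 CPM) and Psmb2 (236.1 CPM), library 1 was high for Psmc6 (199 CPM) and library 4 was low for Psmb6 (198.9 CPM). In GFP low, library 1 was high for Psmc6 (259.6 CPM) and low for Psmd1 (309.9 CPM), Psmd13 (176.9 CPM) and Psmg3 (18.8 CPM). Library 1 was thus the highest for Psmc6 in both groups. Psme2b in GFP low was not among the 8, although GFP low 3 was at 78.8 CPM and the other GFP low libraries at 21.0 to 32.4 CPM. On the log scale, that gap takes up a smaller part of the range.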

How the results depend on the processing

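The 35 lower calls became 35 with DESeq2 or its size factors, 34 with library totals only, 30 without the filter, 39 with the replicate block, 31 to 36 with single libraries left out, 28 without both libraries numbered 3, 32 in libraries 1 to 3 and 30 in libraries 4 and 5. Of the family, 0 genes were higher in any of these fits, and 25 genes, Psmc3ip among them, were lower in all of them. The replicate block added Psmb9, Psmd5, Psme3 and Psmg4 and changed no other call of a member gene. In the paired exact test the ratio differences were 0.50 (Psmb8 over Psmb5), 0.24 (Psmb9 over Psmb6) and 0.51 (Psmb10 over Psmb7), with p = 0.0625 each. Without both libraries numbered 3 they were 0.39, 0.25 and 0.51, with an exact adjusted p of 0.114 each, and with single libraries left out they ranged from 0.42 to 0.62, 0.18 to 0.29 and 0.45 to 0.61. Only member values near 0 turned sign. With single libraries left out, Psmb8 ranged from -0.141 to 0.030, Psme1 from -0.150 to 0.061, Psme2 from -0.181 to 0.047 and Psmf1 from -0.003 to 0.089. Psme1 was at 0.090 in libraries 4 and 5, 0.003 with library totals only and 0.044 without both libraries numbered 3, Psmd9 at 0.068 in libraries 4 and 5, and Psmf1 at -0.021 in libraries 1 to 3. The cause was not tested. Psmb11, at 0 counts in all 10 libraries, got no test.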

Other observations

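Psmb8 and Irf1, a transcription factor gene of the interferon response list, split by library number in opposite directions. Irf1 measured 440.6, 439.2, 452.1, 168.8 and 149.3 CPM in GFP high libraries 1 to 5, and 432.9, 381.2, 396.3, 99.1 and 98.5 CPM in GFP low libraries 1 to 5, while Psmb8 was higher in libraries 4 and 5 than in libraries 1 to 3 in both groups. What libraries 4 and 5 share is not given in the labels.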
